A study of Mus musculus with 26 samples.

Results

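Islet macrophages of female NOD/ShiLtJ (NOD) mice were set against those of female C57BL/6J (B6) mice at 12 weeks of age, over all genes. The 7 libraries labelled with that age, 3 of NOD and 4 of B6, were chosen by their labels from the 26 libraries of the series. NOD mice develop autoimmune diabetes spontaneously and B6 mice do not. NOD was also sampled at 2, 4 and 8 weeks (4 libraries each) and B6 at 2 weeks (3 libraries) and 4 weeks (4 libraries), and these served to show whether a strain difference was already there. No mouse had been treated. Islets were dispersed without enzymes, and live cells that were CD45+, F4/80+ and CD11c+ and lacked B220 and CD90 were sorted. Each library pooled the islet cells of 6 to 14 mice, and the labels do not say that replicates were otherwise separate in origin, so p-values measure the spread between these pools.

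Macrophages live in every islet, where they take up material from the hormone-secreting cells and present it to T cells. In NOD mice, T cells enter the islets and release interferon-gamma, which acts on macrophages. Genes under this control encode chemokines that draw lymphocytes, guanylate-binding proteins, the machinery that loads peptides on MHC molecules, and ligands that restrain T cells. Type I interferons act on an overlapping set of genes through another receptor.

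The 12 week libraries held 4957125 to 10502204 counts each, and 19532 to 26491 genes had at least 1 count. Levels are given as CPM, counts scaled to TMM-adjusted library size. Ptprc (CD45), Adgre1 (F4/80) and Itgax (CD11c), whose proteins set the gate, were high in every library and did not pass the test between strains (adjusted p = 0.662 to 0.815). Thy1 (CD90) stood at 0 to 2.59 CPM. The macrophage growth factor receptor Csf1r lay at 1150 to 1410 CPM in NOD and 1610 to 2060 CPM in B6, a log2 fold change of -0.51 ± 0.12 (SE) whose call was lost without NOD replicate 2 (adjusted p = 0.0909) and with the islet covariate described below (0.261).

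Of 19703 genes tested, 875 were called different at 12 weeks (adjusted p under 0.05), which is 4.44% of them. In NOD 468 were higher (2.38%) and 407 were lower (2.07%), and 2536 genes had an unadjusted p under 0.05. Upper-quartile scaling moved the median of all genes by -0.11 on the log2 scale and turned this split to 385 higher and 549 lower. The values of the 2 groups did not overlap for 3832 genes, or 19.4% of those tested, so separation of the libraries alone is common here. Without NOD replicate 3 the count dropped to 529 genes. In such bulk samples, fewer cells of a type and less RNA per cell cannot be told apart.

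RNA of islet endocrine cells differed between the groups and stands beside every result that follows. The summed level of the 20 endocrine genes tested was 2480 to 3820 CPM in NOD and 296 to 646 CPM in B6, and 4 of them were called higher. These were the insulin genes Ins1 and Ins2, the amyloid polypeptide gene Iapp and the somatostatin gene Sst. Ins2 read 2550, 1510 and 2010 CPM in NOD and 339, 400, 353 and 191 CPM in B6 (log2 fold change 2.66 ± 0.50, adjusted p = 0.00217, lost with limma-voom at 0.122). Its part in the other differences was not tested. A fit took the mean log2 level of Ins1, Ins2, Iapp, Gcg, Prss2 and Cela1 as a covariate, called the islet covariate below. Prss2 and Cela1 are acinar genes that lay at or below 3.17 CPM in every 12 week library. The covariate thus does not measure endocrine RNA alone. This fit called 312 genes, and 282 of them were among the 875. The covariate also ended the calls of the 4 endocrine genes (adjusted p = 0.238 for Iapp, 0.249 for Sst, 0.593 for Ins1 and 0.626 for Ins2). Ins1, Ins2 and Iapp are part of the covariate, so the loss of their calls was built in. The endocrine sums did not overlap between the groups at 12 weeks, so this fit cannot fully tell endocrine RNA apart from strain. The calls ended by the covariate are given below beside each gene. Of the 54 named genes whose call it ended, 42 had a log2 fold change within 1.5 times of that without it. Another 12 had one smaller by more than that limit, and 0 had one larger by more. Most of the 42 were smaller too and some were larger, so a lost call alone does not show how far the difference changed.

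**Figure D1:**
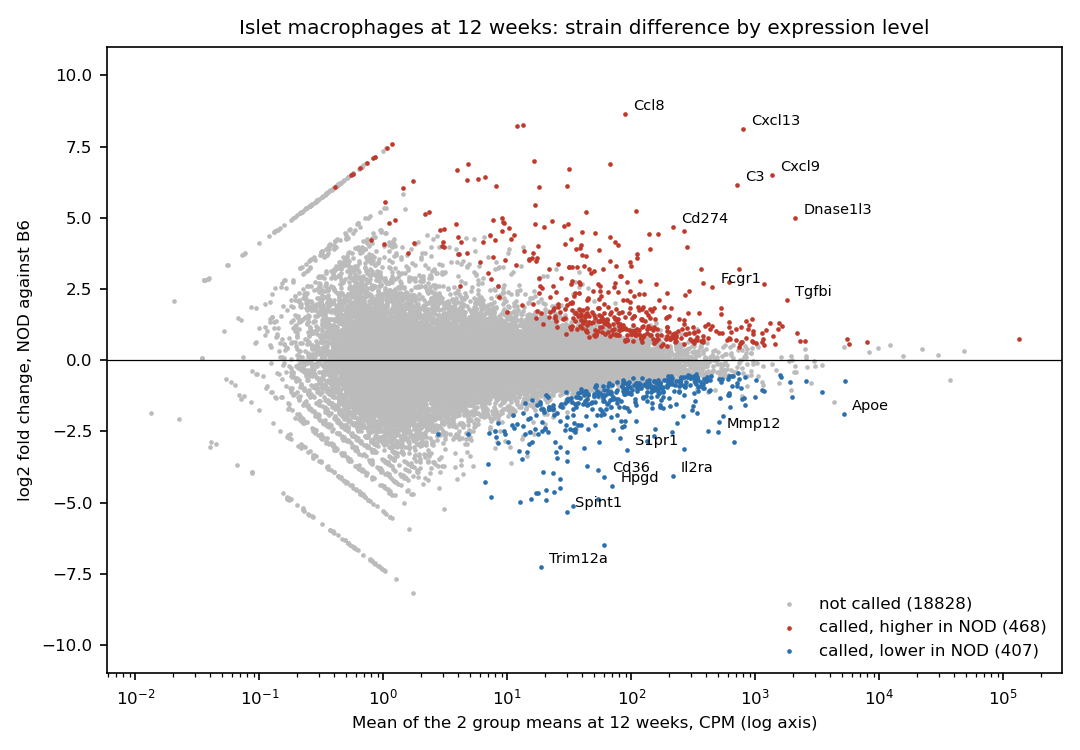
Each point is 1 of the 19703 genes tested, with its mean level at 12 weeks in CPM on a log axis and its log2 fold change in NOD against B6. Red points are the 468 genes called higher in NOD and blue points the 407 called lower, and the chemokine genes Ccl8 and Cxcl13 lie at the top.

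Chemokine genes were among the largest rises. Among 24 chemokine ligands tested, 6 were higher in NOD and 0 lower, with a median log2 fold change of 1.55 against -0.04 over all genes tested. Cxcl13, which draws B cells and follicular T cells, stood at 1140, 1190 and 2390 CPM in NOD and at 4.46, 3.25, 5.75 and 8.59 CPM in B6. Every NOD library lay far above every B6 library, 285-fold on average (log2 fold change 8.13 ± 0.39, adjusted p = 2.59e-15). Ccl8, a ligand of CCR8 and other monocyte and T cell receptors, read 167, 137 and 231 CPM in NOD and less than 1 CPM in each B6 library (0.212 to 0.714 CPM). Its log2 fold change was 8.65 ± 0.72 (adjusted p = 5.96e-10).

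The 2 ligands of the T cell receptor CXCR3 that were called are neighbours on chromosome 5. Cxcl9 read 2530, 2180 and 3400 CPM in NOD and 13.4, 44.2, 32.9 and 29.3 CPM in B6, 90.3-fold higher (log2 fold change 6.49 ± 0.97, adjusted p = 0.00019). Cxcl10 was higher by less, at 156, 121 and 204 CPM against 18.7, 26.3, 28.9 and 22.7 CPM (log2 fold change 2.73 ± 0.40, adjusted p = 1.93e-05). The groups did not overlap for either gene. Ccl5, an attractant of T cells, reached 203 to 316 CPM in NOD and 8.82 to 24.2 CPM in B6 (adjusted p = 0.0116). Cxcl14, an attractant of myeloid cells, differed least among the called ligands, at 109 to 120 CPM against 28.2 to 53.6 CPM (log2 fold change 1.44 ± 0.31).

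The inflammatory attractants that macrophages release early, Ccl3 and Ccl4, leaned the other way without passing. Ccl3 read 236, 141 and 139 CPM in NOD and 348, 331, 413 and 174 CPM in B6 (log2 fold change -0.88 ± 0.32, adjusted p = 0.137), and the groups overlapped. Ccl4 gave -0.80 ± 0.26 (adjusted p = 0.0887). The monocyte attractant Ccl2 lay at 16.4 to 33.2 CPM in NOD and 1.61 to 7.62 CPM in B6, which did not pass either (adjusted p = 0.126). The membrane-bound Cxcl16 was close in the 2 strains (log2 fold change 0.15 ± 0.11). With the islet covariate, the calls of Cxcl10, Ccl5 and Cxcl14 were lost (adjusted p = 0.059, 0.364 and 0.507). The log2 fold change with it was 2.11 for Cxcl10, 3.52 for Ccl5 and 0.87 for Cxcl14.

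Of 14 receptors for chemokines and other attractants, 3 were higher and 1 lower. The receptor for sphingosine 1-phosphate S1pr1, which guides cells out of tissues, was 8.78-fold lower in NOD, at 16.3, 29.7 and 10.9 CPM against 192, 165, 133 and 176 CPM (adjusted p = 1.76e-08). Ccrl2, which binds the attractant chemerin without signalling, read 723, 425 and 444 CPM in NOD and 80.4 to 212 CPM in B6 (log2 fold change 1.66 ± 0.30). The CCL20 receptor Ccr6 stood at 17.7 to 25.7 CPM against 0.802 to 3.57 CPM. Its log2 fold change of 3.34 was 3.23 with the islet covariate, but its call was lost with it (adjusted p = 0.433) and without NOD replicate 1, B6 replicate 1 or B6 replicate 3 (0.0571, 0.0549 and 0.08). The monocyte receptor Ccr2 was at 36.4 to 56.2 CPM in NOD and 66.3 to 119 CPM in B6 (adjusted p = 0.247), and Cx3cr1 overlapped (adjusted p = 0.903).

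**Figure D2:**
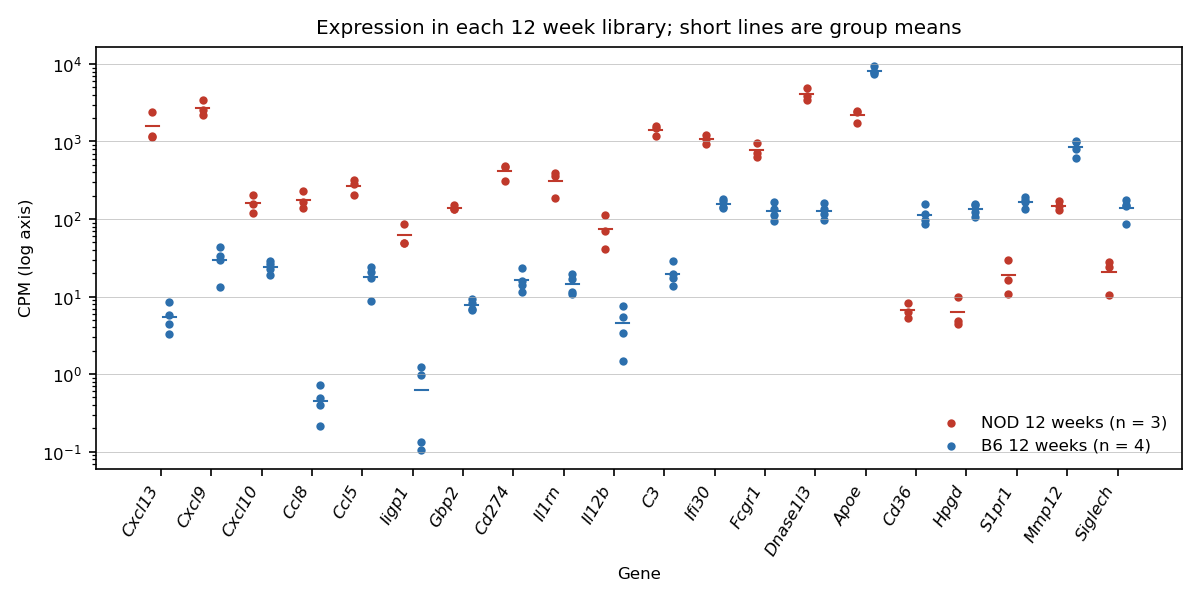
Each point is 1 library at 12 weeks (red NOD, n = 3, blue B6, n = 4), with the level in CPM on a log axis and short lines at the group means. The 14 genes on the left, from Cxcl13 to Dnase1l3, are higher in all NOD libraries, and the 6 on the right, from Apoe to Siglech, are lower in all of them.

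The receptor for interferon-gamma was not called higher. Its ligand-binding chain Ifngr1 lay at 169 to 229 CPM in NOD and 269 to 303 CPM in B6 (adjusted p = 0.105), and the second chain Ifngr2 overlapped (adjusted p = 0.517). Of the 12 genes of the receptor and its signalling, 2 were higher, with a median log2 fold change of 0.59. Batf2, a partner of IRF1 in activated macrophages, read 47.3, 51.8 and 80.3 CPM in NOD and 6.25, 0.325, 11.2 and 6.47 CPM in B6 (log2 fold change 3.29 ± 0.79, adjusted p = 0.00937). The groups did not overlap. With the islet covariate the log2 fold change was 3.22 and the call was lost (adjusted p = 0.25), as it was without NOD replicate 3 (0.0559). Irf1 itself fell just short (97.9 to 134 CPM against 41.6 to 71.8 CPM, adjusted p = 0.0559), and the MHC class II activator Ciita gave 0.40 ± 0.24.

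Interferon-inducible GTPases attack membranes around microbes inside the cell. All 15 that passed the filter on low counts had a positive log2 fold change, 7 were called higher, and the median was 1.90. Of the 20 on the list, 3 had no row under that symbol and 2 did not pass the filter. Several have near-identical copies, so reads may be split between them and their levels are uncertain. Gbp2b read 252, 249 and 294 CPM in NOD and 17, 7.8, 8.29 and 16 CPM in B6, 21.6-fold higher. Gbp2 read 134, 134 and 152 CPM against 8.21, 6.98, 6.68 and 9.34 CPM (log2 fold change 4.16 ± 0.65, adjusted p = 5.97e-05). Iigp1, of the immunity-related family, read 49.7, 48.5 and 87.3 CPM and at most 1.25 CPM in B6.

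The other called guanylate-binding proteins differed by less. Gbp7 stood at 161, 132 and 201 CPM in NOD and 52, 25.2, 21.7 and 23.9 CPM in B6, where replicate 1 lay above the others (log2 fold change 2.43 ± 0.33, adjusted p = 5.34e-06). Gbp4 gave a log2 fold change of 2.74 ± 0.49 and Gbp3 one of 1.08 ± 0.26. Both lost their calls with the islet covariate (adjusted p = 0.0909 and 0.312), and Gbp3 also without NOD replicate 3 (0.0859). Igtp, at 36.4 to 49.4 CPM against 6.66 to 14.4 CPM, was not called (adjusted p = 0.169).

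The promoters of these genes are known to carry interferon response elements. Below are 4 promoters of called GTPase, MHC class I and CXC chemokine genes that hold a GAS-like motif (TTCNNNGAA, the interferon-gamma-activated site) or an ISRE-like motif (GAAANNGAAA, bound by IRF factors). They were the 4 with the smallest adjusted p among such genes that could be shown here. Each runs from 250 bases before the start of the gene to 50 bases after it, 5′ to 3′ on the strand of the gene, from RefSeq on GRCm38.p6, with these motifs, on either strand, in capitals. Gbp7 lies at chr3:142530086-142530385 (+), Gbp2 at chr3:142620413-142620712 (+), Psmb8 at chr17:34197945-34198244 (+) and Cxcl10 at chr5:92348840-92349139 (-).
Gbp7: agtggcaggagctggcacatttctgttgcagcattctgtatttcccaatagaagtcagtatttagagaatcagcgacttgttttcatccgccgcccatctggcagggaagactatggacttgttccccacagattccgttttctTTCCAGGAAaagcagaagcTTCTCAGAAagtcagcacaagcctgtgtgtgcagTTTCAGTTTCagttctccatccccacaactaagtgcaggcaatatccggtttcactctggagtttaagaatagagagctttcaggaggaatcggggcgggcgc
Gbp2: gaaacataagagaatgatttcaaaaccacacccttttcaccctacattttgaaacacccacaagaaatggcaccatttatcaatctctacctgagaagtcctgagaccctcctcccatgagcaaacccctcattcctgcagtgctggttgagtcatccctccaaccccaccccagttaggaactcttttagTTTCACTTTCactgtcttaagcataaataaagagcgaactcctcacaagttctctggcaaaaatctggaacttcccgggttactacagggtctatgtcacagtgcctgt
Psmb8: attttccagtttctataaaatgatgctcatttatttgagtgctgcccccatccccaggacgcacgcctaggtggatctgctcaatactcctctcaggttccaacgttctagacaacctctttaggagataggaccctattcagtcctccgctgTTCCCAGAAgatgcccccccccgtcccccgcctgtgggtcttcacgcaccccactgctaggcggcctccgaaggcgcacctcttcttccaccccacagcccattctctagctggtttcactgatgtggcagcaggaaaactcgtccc
Cxcl10: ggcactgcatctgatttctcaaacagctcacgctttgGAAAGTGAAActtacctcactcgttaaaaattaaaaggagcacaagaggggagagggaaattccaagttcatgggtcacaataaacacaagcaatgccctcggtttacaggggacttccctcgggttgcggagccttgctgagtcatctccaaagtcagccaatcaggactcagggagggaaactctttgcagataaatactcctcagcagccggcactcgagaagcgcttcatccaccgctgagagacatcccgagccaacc

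Gbp7 carried 2 GAS-like motifs and 1 ISRE-like motif, and each of the other 3 promoters carried 1 motif. An ISRE-like motif lay in 3.99% and a GAS-like motif in 9.55% of the 27025 genes with a promoter in the table. Of the 11 GTPase genes matched to a promoter, 10 held an ISRE-like motif and 6 a GAS-like motif. Of the 21 matched type I interferon-stimulated genes, 11 held an ISRE-like motif and 5 a GAS-like motif, so the motifs were frequent in both lists. Either motif lay in 6 of the 15 matched MHC class I genes and in 3 of the 17 matched chemokine ligand genes. The promoters shown were picked for holding a motif, and those of Cxcl13, Ccl8, Cxcl9, H2-K1 and H2-D1 held neither. Either motif lay in 16.9% of the 344 matched genes called higher, in 13.9% of the 295 called lower and in 11.7% of all genes tested. A kappa B-like motif was searched on both strands as well and lay in 29.7% of promoters in the table, 37.5% of those of genes tested, 41.6% of those called higher and 44.4% of those called lower. A match describes these letters only, not a bound site.

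Of 28 genes stimulated mainly by type I interferon, 0 were higher in NOD and 2 lower, with a median log2 fold change of -0.48. Oas2, a sensor enzyme for double-stranded RNA, read 29.8, 22.5 and 25 CPM in NOD and 86.8, 99.7, 105 and 86.9 CPM in B6 (log2 fold change -1.88 ± 0.31, adjusted p = 0.000142), and lost its call with the islet covariate (0.0676). Rtp4, a chaperone of receptors, gave -1.36 ± 0.39, and its call was lost without any 1 of the NOD replicates (adjusted p = 0.131, 0.201 and 0.143), without B6 replicate 1 (0.085) or 4 (0.0696) and in the fit with the replicate number as a block (0.0524). Ifit1 overlapped between strains (adjusted p = 0.984), as did Irf7 (0.798). A fit of the 2 groups alone called 7 of the list lower and 1 higher.

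Of the 16 genes of MHC class I presentation tested, all had a positive log2 fold change, 11 were called higher and 0 lower, and the median was 1.06. The heavy chain gene H2-K1 read 1310, 1050 and 1400 CPM in NOD and 467, 568, 571 and 523 CPM in B6 (log2 fold change 1.23 ± 0.16, adjusted p = 4.24e-06). H2-D1 read 1190, 1060 and 1340 CPM against 449, 573, 633 and 583 CPM (1.10 ± 0.15, adjusted p = 6.54e-06). NOD carries another allele of H2-K1 than the B6 reference genome, while the H2-D1 allele is of the same type in both strains, so the second gene is the less exposed to mismatched reads.

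The peptide supply to these molecules showed the same direction. Psmb8, a catalytic subunit of the immunoproteasome, read 273, 313 and 387 CPM in NOD and 67.1, 87.7, 79.7 and 132 CPM in B6 (log2 fold change 1.82 ± 0.27). Psme2, of the cap that opens the proteasome, was 4.86-fold higher, and Tapbp, which bridges the peptide transporter to the heavy chain, 2.03-fold. B2m, the shared light chain, read 6920, 5270 and 8400 CPM against 4330, 3550, 4020 and 4520 CPM. Tapbp and B2m lost their calls with the islet covariate (adjusted p = 0.105 and 0.805), where the log2 fold change of B2m was 0.29 in place of 0.74, and B2m also without NOD replicate 3 (0.0921). The peptide transporter Tap1 (88.7 to 95.6 CPM against 22.4 to 44.6 CPM) was called at an adjusted p of 0.0421, a call that every single omission ended (0.0608 to 0.194), as did RLE scaling (0.0606), upper-quartile scaling (0.0653) and the replicate block (0.0598). Psmb9 was not called (adjusted p = 0.201).

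Of 12 genes of MHC class II presentation tested, 6 were higher and 1 lower, with a median log2 fold change of 0.49. Ifi30, a reductase that opens disulfide bonds of antigens in lysosomes, read 1070, 915 and 1210 CPM in NOD and 145, 169, 138 and 182 CPM in B6, 6.74-fold higher (adjusted p = 2.83e-12). Lgmn, a lysosomal protease, was 1.48-fold higher (adjusted p = 0.00131). The peptide exchange factor H2-DMb2 read 77.5, 66.6 and 84.2 CPM against 3.21 to 9.97 CPM, and H2-DMa 511 to 534 CPM against 290 to 346 CPM.

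H2-Ob, part of the inhibitor of that exchange, was the member called lower, at 12.4, 15 and 15.4 CPM against 39.1, 60.1, 67.6 and 47.7 CPM. H2-DMb2, H2-DMa and H2-Ob lost their calls with the islet covariate (adjusted p = 0.0815, 0.531 and 0.272), and H2-DMa also without B6 replicate 3 (0.0507). H2-Ab1 read 9180, 8380 and 9730 CPM in NOD and 6100, 8020, 7790 and 7640 CPM in B6, which did not pass (log2 fold change 0.30 ± 0.17, adjusted p = 0.521). H2-Aa gave 0.42 ± 0.17 and the invariant chain Cd74 0.13 ± 0.15. The protease Ctss was not called either (adjusted p = 0.996). NOD alleles of H2-Aa and H2-Ab1 differ from the reference too.

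The beta chain gene H2-Eb1 was called higher, at 10000, 8500 and 10300 CPM in NOD and 5060, 6440, 6250 and 6990 CPM in B6 (log2 fold change 0.63 ± 0.18, adjusted p = 0.0366). The groups did not overlap. The call was lost without NOD replicate 1 (0.138) or 3 (0.176), without B6 replicate 1 (0.142), 2 (0.109) or 3 (0.119), and with upper-quartile scaling (0.0934), DESeq2 (0.0583) and no filter (0.192). With the islet covariate its log2 fold change was 0.39 (adjusted p = 0.75).

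Among 24 ligands that stimulate or restrain T cells, 4 were higher and 1 lower. Cd274 (PD-L1), the ligand of the inhibitory receptor PD-1, read 479, 311 and 463 CPM in NOD and 11.6, 15.9, 23.4 and 14.2 CPM in B6, 25.6-fold higher (adjusted p = 0.000996). Cd40, through which helper T cells activate macrophages, read 98.6, 57.6 and 96.7 CPM against 10.5, 8.12, 13.5 and 8.59 CPM, a call lost with the islet covariate (adjusted p = 0.238). Slamf8 was 6.90-fold higher. Sirpa, an inhibitory receptor for CD47, read 2020, 1510 and 2030 CPM against 615, 829, 624 and 951 CPM (log2 fold change 1.30 ± 0.14, adjusted p = 1.04e-07).

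The classical stimulators of CD28 were not among them. Cd86 overlapped between strains (258 to 337 CPM against 178 to 290 CPM, adjusted p = 0.6). Cd80 read 10.2 to 13.7 CPM in NOD and 1.06 to 5.89 CPM in B6, without overlap (adjusted p = 0.107). It was called higher without the B6 4 week libraries, with the 2 groups fitted alone, with limma-voom and with DESeq2. Icosl, the ligand of the helper T cell receptor ICOS, was called lower (161 to 185 CPM against 213 to 309 CPM), but not without any 1 of the NOD replicates (adjusted p = 0.0682, 0.163 and 0.176), without B6 replicate 2 (0.0647) or with no filter (0.159).

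**Figure D3:**
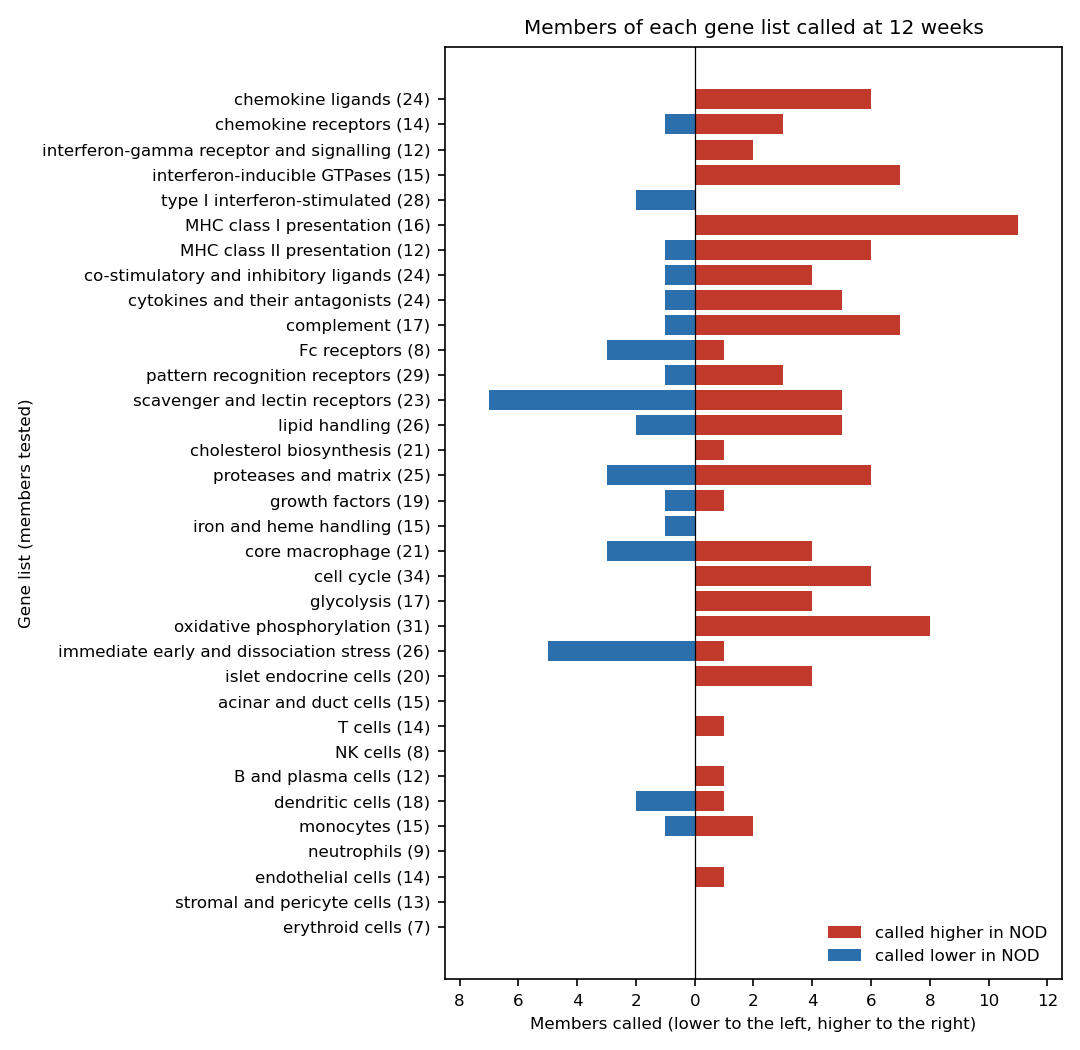
Bars count the members of each gene list called higher (red, to the right) or lower (blue, to the left) in NOD at 12 weeks, with the number of members tested in parentheses. MHC class I presentation has the longest bar to the right (11 of 16), and scavenger and lectin receptors the longest to the left (7 of 23).

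Of 24 cytokines, mediators and antagonists tested, 5 were higher and 1 lower. Il1rn, which blocks the receptor of interleukin-1, read 360, 189 and 390 CPM in NOD and 10.9, 19.5, 16.7 and 11.5 CPM in B6, 21.4-fold higher (adjusted p = 3.73e-06). Il18bp, which captures interleukin-18, read 210, 167 and 239 CPM against 14.3, 13.5, 13 and 20.8 CPM (log2 fold change 3.73 ± 0.56, adjusted p = 2.7e-05). Il1b was near in both strains at 731 to 1140 CPM against 515 to 903 CPM (adjusted p = 0.562), as was Tnf (0.969). Il1a was called lower, at 42.7 to 78.4 CPM against 91.1 to 225 CPM, but not with the islet covariate (adjusted p = 0.209), no filter (0.138) or limma-voom (0.225), nor without NOD replicate 2 (0.173), NOD replicate 3 (0.17) or B6 replicate 3 (0.0527).

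Another 3 mediators were higher. Ptgs2, the inducible cyclooxygenase that makes prostaglandins, read 414, 180 and 228 CPM in NOD and 53.4, 61.4, 41.7 and 13.8 CPM in B6 (log2 fold change 2.69 ± 0.39). Acod1, the enzyme that makes itaconate, read 91.5, 32 and 54.7 CPM against 1.8 to 2.6 CPM. Il12b, the shared chain of interleukins 12 and 23, read 111, 41.5 and 69.3 CPM against 1.49 to 7.63 CPM, 16.4-fold higher. Acod1 and Il12b lost their calls with the islet covariate (adjusted p = 0.0672 and 0.504). Hpgd, which breaks prostaglandins down, was 21.2-fold lower, at 4.86, 9.76 and 4.39 CPM against 123, 156, 106 and 154 CPM (adjusted p = 5.77e-09). It was also the single called member of the 15 iron and heme genes, although it acts on prostaglandins and not on iron.

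Of 17 complement genes tested, 7 were higher and 1 lower, with a median log2 fold change of 0.96. C3, the central component, read 1490, 1180 and 1580 CPM in NOD and 13.7, 19.5, 17.4 and 28.3 CPM in B6, 71.6-fold higher (adjusted p = 1.56e-10). The 3 chains of C1q, which starts the classical pathway, were all called higher, by 2.13-fold for C1qa, 1.61-fold for C1qb and 2.31-fold for C1qc. Cfp (properdin), which stabilises the alternative pathway convertase, read 120, 121 and 167 CPM against 6.68 to 19.9 CPM. C1qa and C1qb lost their calls with the islet covariate (adjusted p = 0.136 and 0.765), with log2 fold changes of 0.69 in place of 1.09 and 0.28 in place of 0.69.

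Of 8 Fc receptor genes tested, which encode receptors for antibodies, 1 was higher and 3 lower. Fcgr1, the high-affinity receptor for IgG, read 710, 637 and 953 CPM in NOD and 95.3, 136, 114 and 165 CPM in B6, 6.00-fold higher (adjusted p = 9.29e-12). The low-affinity receptor Fcgr3 was lower, at 185 to 244 CPM against 287 to 354 CPM, and so was Fcer1g, the signalling chain they share, at 560 to 773 CPM against 933 to 1050 CPM. Without NOD replicate 1 or 2 the adjusted p was 0.0689 and 0.121 for Fcgr3 and 0.0851 and 0.163 for Fcer1g. Fcgr3 was also lost with the islet covariate (0.0727) and no filter (0.0949). Fcrls, a receptor-like gene of microglia and other resident macrophages, was 23.9-fold lower, at 1.24 to 2.2 CPM against 23.9 to 59 CPM. Fcgr4 was not called (adjusted p = 0.492).

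Sensors of microbial material gave 3 rises and 1 fall among 29. Tmem173 (STING), which responds to cyclic dinucleotides made when DNA is sensed in the cytosol, read 166, 161 and 194 CPM in NOD and 58.7, 80.4, 72.7 and 88.5 CPM in B6 (log2 fold change 1.21 ± 0.19). Tlr7, a sensor of single-stranded RNA, was lower, at 53.9, 23.8 and 49.4 CPM against 128, 151, 169 and 78.3 CPM. Clec4n (dectin-2), a receptor for fungal mannans, read 32.3 to 51.1 CPM against 4.06 to 13.4 CPM. All 3 lost their calls with the islet covariate (adjusted p = 0.0595, 0.115 and 0.617), and Clec4n also without NOD replicate 3 (0.0587). The log2 fold change of Clec4n was 1.24 with the covariate and 1.99 without it.

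Scavenger receptors and lectins divided, with 5 higher and 7 lower of 23. Cd36, which takes up oxidised lipoproteins and fatty acids, read 5.29, 6.35 and 8.33 CPM in NOD and 86.6, 115, 156 and 97.3 CPM in B6, 17.1-fold lower (adjusted p = 2.73e-10). Msr1, another receptor for modified lipoproteins, was higher, at 77.4, 64.8 and 142 CPM against 8.75, 12.7, 40.1 and 8.91 CPM (log2 fold change 2.43 ± 0.51). Siglech, known from plasmacytoid dendritic cells and microglia, was 6.68-fold lower. Stab1 was 1.92-fold lower, and Mertk, which takes up dying cells, 2.28-fold. Clec4a1 and Clec4a3 were 11.4-fold and 3.63-fold higher.

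With the islet covariate the calls of Clec4a1, Clec4a3, Stab1 and Mertk were lost (adjusted p = 0.0814, 0.054, 0.598 and 0.973). The log2 fold change went from -0.94 to -0.51 for Stab1 and from -1.19 to -0.16 for Mertk. Mertk was also lost without any 1 of the NOD replicates (0.163, 0.217 and 0.0715), without B6 replicate 1 (0.0909) or 3 (0.0916) and with the replicate number as a block (0.0573).

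Lipid genes showed no common direction, with 5 higher and 2 lower of 26 and a median log2 fold change of -0.02. Apoe, the lipoprotein through which macrophages export cholesterol, read 2510, 2390 and 1750 CPM in NOD and 7460, 7810, 7940 and 9370 CPM in B6 (log2 fold change -1.88 ± 0.17, adjusted p = 1.54e-09). Nr1h3 (LXR alpha), a nuclear receptor for oxidised cholesterol and a known activator of Apoe, was higher, at 70, 68.6 and 113 CPM against 5.36, 0.162, 0.668 and 2.97 CPM (log2 fold change 5.20 ± 0.95). Pltp, a phospholipid transfer protein and another known target of that receptor, was 12.2-fold higher. The tetraspanin Cd63 was 2.08-fold higher, a call lost with the islet covariate (adjusted p = 0.34). Trem2, a lipid receptor of macrophages in tissue injury, lay at 40.9 to 60.9 CPM in NOD and 66.4 to 110 CPM in B6 and was not called (adjusted p = 0.0963).

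Of 21 enzymes of cholesterol synthesis tested, 1 was called, a share near that of all genes. The log2 fold change was positive for 20 and negative for 1, with a median of 0.96, and with the islet covariate 0 were called. Dhcr7, which makes the last step, was the member called, at 45.5, 30.5 and 46.8 CPM in NOD and 8.21, 7.31, 9.89 and 24.4 CPM in B6, and it was lost with the islet covariate (adjusted p = 0.0965). The fit without the B6 4 week libraries called 6 of the list and limma-voom 7.

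Proteases and matrix genes gave 6 rises and 3 falls among 25. Tgfbi, a matrix protein induced by TGF-beta, read 3020, 2300 and 3450 CPM in NOD and 562, 734, 623 and 800 CPM in B6, 4.30-fold higher (adjusted p = 4.3e-10). Mmp12, the macrophage elastase, was 5.76-fold lower, at 170, 145 and 130 CPM against 801, 996, 1010 and 616 CPM (adjusted p = 7.97e-09). Mmp14, a membrane-bound collagenase, was 2.73-fold higher and the lysosomal protease Ctsz 2.70-fold. Thbs1 (thrombospondin), which can activate latent TGF-beta, was 13.3-fold lower, at 2.56 to 10 CPM against 46.4 to 116 CPM. The TGF-beta receptor chain Tgfbr1 read 723, 710 and 826 CPM against 1320, 1770, 1690 and 1600 CPM (log2 fold change -1.08 ± 0.13, adjusted p = 1.25e-06).

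Growth factor genes mostly did not pass, with 1 higher and 1 lower of 19. Grn (progranulin), a secreted and lysosomal factor, was 2.08-fold higher. Fgf13 was lower at 0.338 to 1.51 CPM against 3.93 to 6.28 CPM, and was lost with the islet covariate (adjusted p = 0.249), no filter (0.0911), the fit of the 2 groups alone (0.0699) and without NOD replicate 2 (0.166) or 3 (0.21). Igf1 read 4.96 to 7.32 CPM in NOD and from 3.21 to 61.9 CPM in B6 (adjusted p = 0.0786).

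Some of the largest differences fell outside these lists. Dnase1l3, a secreted nuclease that digests chromatin in membrane vesicles, read 3900, 3410 and 4840 CPM in NOD and 115, 160, 95.7 and 135 CPM in B6, 32.0-fold higher (adjusted p = 1.46e-06). Chil1, a secreted chitinase-like protein, was 37.5-fold higher. Serpina3g, an inhibitor of cathepsins, read 129, 132 and 142 CPM against at most 2.27 CPM, and the surface protein Ly6a read 51.8 to 73.3 CPM against at most 1.49 CPM. Ly6i, which is close in sequence to Ly6a, was lost with the islet covariate (adjusted p = 0.471). H2-Q2 stood at 7.45 to 15.2 CPM and the lectin Itln1 at 7.32 to 12.1 CPM, against at most 0.401 CPM in B6 for both. The thrombin receptor F2r read 6.71 to 13.6 CPM against at most 0.179 CPM, and was lost without B6 replicate 2 (0.0544) or 3 (0.054). Serpina3g, H2-Q2 and the Ly6 genes belong to families of near-identical copies, so their levels are uncertain.

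On the lower side, Il2ra, the alpha chain of the interleukin-2 receptor, read 25.8, 18.7 and 28.4 CPM in NOD and 381, 390, 450 and 405 CPM in B6, 16.7-fold lower (adjusted p = 9.51e-10). Hepacam2 read 0.676 to 3.66 CPM against 53.6 to 76.7 CPM. Among general macrophage genes, 4 were higher and 3 lower of 21. Lyz2 (lysozyme) was 2.45-fold and Aif1 3.07-fold higher, both lost with the islet covariate (adjusted p = 0.188 and 0.53), where the log2 fold change of Aif1 was 0.69 in place of 1.62, and the tetraspanin Cd81 was 1.75-fold lower. Itm2b, among the highest of the genes called at 12 weeks and at neither 2 nor 4 weeks, gave a log2 fold change of 0.97 ± 0.17 and was lost with the covariate (adjusted p = 0.253).

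Of 34 cell cycle genes, 6 were higher and 0 lower, with a median log2 fold change of 1.04. Mki67, a protein of cycling nuclei, read 322, 226 and 296 CPM in NOD and 60.2, 141, 98.8 and 103 CPM in B6 (log2 fold change 1.48 ± 0.29, adjusted p = 0.00122), and was lost with the islet covariate (0.112). Birc5 (survivin) was 3.31-fold higher, lost with the covariate (0.565), without any 1 of the NOD replicates (0.061, 0.0553 and 0.0933) and without B6 replicate 1 (0.0833) or 2 (0.0617). The fit without the B6 4 week libraries called 17 of the 34 and the fit with the islet covariate 1.

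Of 31 genes of oxidative phosphorylation 8 were higher and 0 lower (median log2 fold change 1.05), and of 17 of glycolysis 4 were higher and 0 lower (median 0.59). Sdhc, of respiratory complex II, read 81.9, 79.6 and 130 CPM in NOD and 13.7, 19.7, 27.8 and 36.1 CPM in B6. Ndufa4, Atp5o and Atp5b were 4.29-fold, 3.28-fold and 2.26-fold higher, and each lost its call with the islet covariate (adjusted p = 0.16, 0.388 and 0.221). Hk3, which phosphorylates glucose, was 4.44-fold higher, and Ldha, which makes lactate, 2.39-fold. Both were lost with the covariate (0.0618 and 0.37), Hk3 also without NOD replicate 2 (0.0538), and Ldha without NOD replicate 3 (0.127) or B6 replicate 1 (0.0607). The covariate left 1 member of the oxidative list and 0 of the glycolytic list called.

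Of 26 genes induced by stress and by tissue dissociation, 1 was higher and 5 lower, with a median log2 fold change of -0.83. The chaperone Hspa8 read 342, 237 and 310 CPM in NOD and 649, 914, 772 and 660 CPM in B6 (log2 fold change -1.34 ± 0.21), and was lost with the islet covariate (adjusted p = 0.0606). The antiproliferative gene Btg2 was 2.11-fold lower. Jun (644, 396 and 436 CPM against 948, 1170, 981 and 634 CPM) overlapped between the groups, and Dnajb1 was 2.06-fold lower. Both were lost with the covariate (0.504 and 0.261) and without NOD replicate 2 (0.139 and 0.125) or 3 (0.114 and 0.0841), and Jun also without B6 replicate 2 (0.0514) and with no filter (0.104). B6 replicate 4 stood below the other B6 libraries in this list, and without it 10 members were called lower.

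Marker genes of other immune cells were read next. For T cells, the summed level of 14 tested genes was 95.7 to 119 CPM in NOD and 30.3 to 89.9 CPM in B6, and in NOD most of it came from Cd4, which macrophages also carry (68.2 to 99.3 CPM against 9.76 to 64.4 CPM). Cd4 was the 1 gene called, and not with the islet covariate (adjusted p = 0.0965) or without NOD replicate 1 (0.0774) or 3 (0.0623) or B6 replicate 2 (0.1) or 3 (0.0831). The T cell receptor genes Cd3d, Cd3e, Cd3g, Trac and Trbc2 lay at or below 3.15 CPM in every library. Cd3e read 1.29 to 3.15 CPM in NOD and 0 in 3 of 4 B6 libraries, and Trbc2 0.324 to 1.8 CPM against 0 in all 4. Trac overlapped, at 0.225 to 2.08 CPM against 0 to 2.68 CPM, as did Cd3d and Cd3g. For B and plasma cells the summed level of 12 tested genes was 332 to 532 CPM in NOD and 395 to 497 CPM in B6. Cd79a lay at 0.108 to 0.244 CPM in NOD and reached 2.14 CPM in B6, Ms4a1 lay at 0.563 to 4.03 against 0 to 2.55 CPM, and Jchain at 0.901 to 6.91 against 0 to 2.86 CPM. Igkc was called from 1 library, with 71.5 CPM in NOD replicate 1 and 0 and 0.225 CPM in the others (adjusted p = 0.992 without it). It was also lost without any 1 of the B6 replicates (0.0879 to 0.12), and with the islet covariate, the replicate block, limma-voom and no filter (0.816, 0.0781, 0.255 and 0.232).

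Dendritic cell genes differed in both directions, with 1 higher and 2 lower of 18 and summed levels of 471 to 577 CPM in NOD and 535 to 673 CPM in B6. Fscn1, an actin bundler of mature dendritic cells, read 41.3, 27.6 and 45.5 CPM against 0.357 to 4.39 CPM (log2 fold change 4.67 ± 0.74). Clec9a, which defines cross-presenting dendritic cells, was not called (adjusted p = 0.398). It lay at 92 to 160 CPM in NOD and 20.2 to 50.2 CPM in B6, without overlap. Xcr1, also on this list, lay at 11.8 to 16 against 1.25 to 6.47 CPM and was not called either. Flt3 overlapped at 3.99 to 4.84 against 4.46 to 8.45 CPM, as did Zbtb46 at 5.5 to 6.1 against 0.318 to 8.03 CPM. The fit of the 2 groups alone called 5 of the list higher and 2 lower. Among 15 monocyte genes 2 were higher and 1 lower, and their sum was 586 to 787 CPM in NOD and 665 to 1050 CPM in B6. Treml4 was 7.45-fold higher. Ly6c2, the defining marker of classical monocytes, was at 0 in all B6 libraries and at 0.854 to 1.29 CPM in NOD, at least 10.9-fold higher against 3 counts over the B6 group, and its call was lost in each single omission (adjusted p = 0.0752 to 0.103). It was also lost with the islet covariate, the replicate block and no filter (0.0676, 0.0714 and 0.112). The part of these cells in the differences above was not tested.

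The strain difference at 12 weeks was tested against that at 2 weeks, the age before T cells are known to enter NOD islets in number. For 329 genes the 2 differences were not the same (1.67% of those tested), 205 of them larger in the direction of NOD at 12 weeks. At 2 weeks itself 421 genes were called (2.14%). Of the 875 genes called at 12 weeks, 178 were called in the same direction at 2 weeks and 22 in the opposite one, and 372 and 67 were so at 4 weeks. The same-direction genes are 20.3% of the 12 week and 42.3% of the 2 week calls. Against 4 weeks, when 3450 genes were called (17.5%), the difference had changed for 874 genes (4.44%). The B6 4 week libraries had 14152 to 17839 genes with a count, fewer than any other library, at 9752680 to 11349106 counts each.

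**Figure D4:**
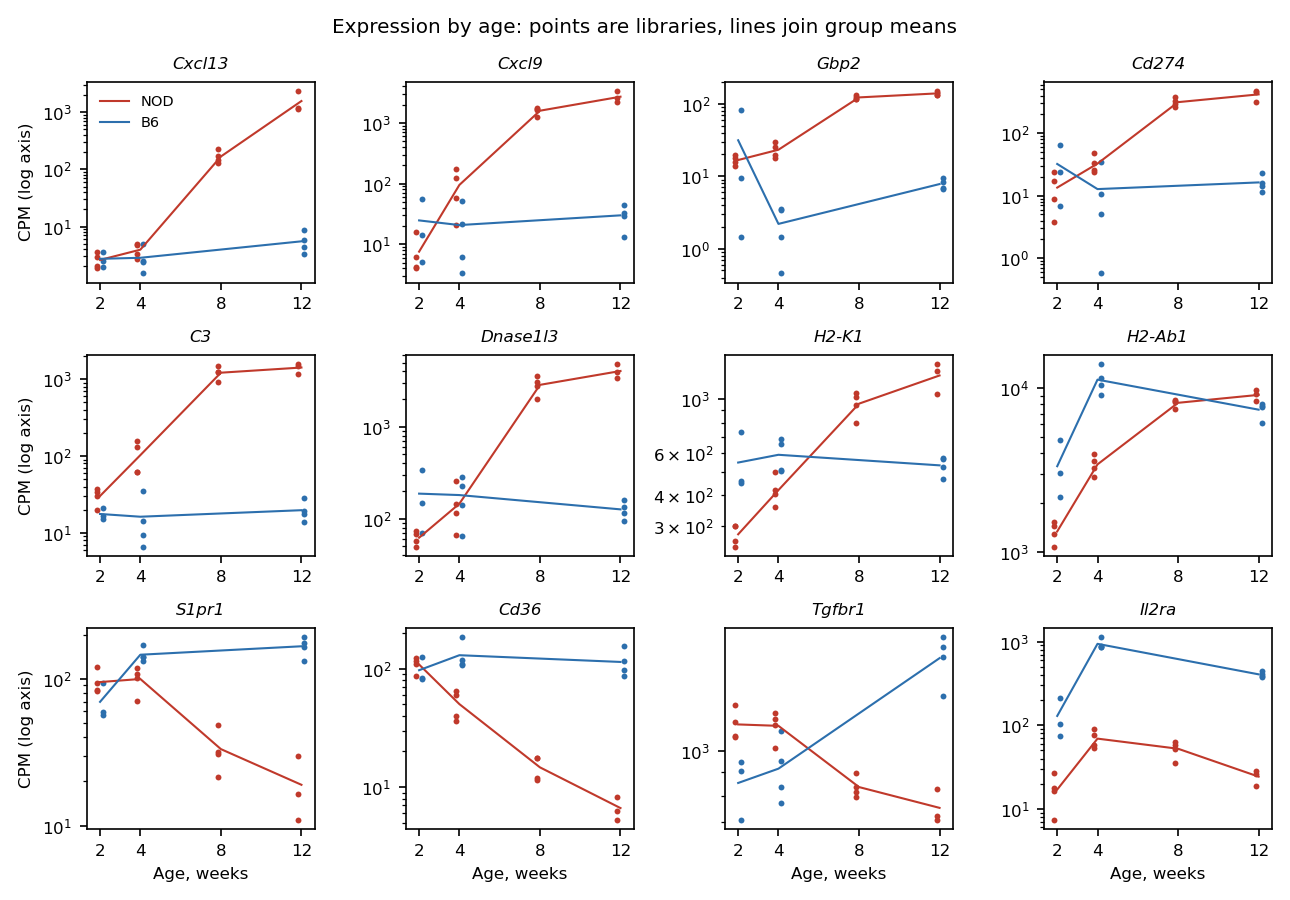
Points are single libraries and lines join group means, with age in weeks on the horizontal axis and CPM on a log axis (red NOD, blue B6, which was not sampled at 8 weeks here). Cxcl13, Cxcl9, C3 and Dnase1l3 were not called different at 2 weeks and are apart at 12 weeks, while the mean of Il2ra is lower in NOD at 2, 4 and 12 weeks.

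Of the chemokine ligands called higher at 12 weeks, Cxcl14 alone was called higher at 2 weeks. Cxcl13 averaged 2.60 CPM in NOD and 2.72 CPM in B6 at 2 weeks, 3.94 and 2.84 CPM at 4 weeks, and 168 CPM in NOD at 8 weeks (interaction of 12 against 2 weeks 8.20 ± 0.51, adjusted p = 3.2e-12). Ccl8 averaged 0.604 CPM in NOD at 2 weeks and 43.9 CPM at 8 weeks (interaction 7.68 ± 1.16). Cxcl9 averaged 7.55, 95 and 1590 CPM in NOD at 2, 4 and 8 weeks (interaction 8.22 ± 1.25). Cxcl14 went against them, with 297 CPM in NOD and 15.7 CPM in B6 at 2 weeks, and its strain difference had narrowed by 12 weeks (interaction -2.80 ± 0.46).

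For 10 of the 15 GTPases the strain difference had moved towards NOD since 2 weeks, and for 0 away from it. At 2 weeks 3 of the 15 were called lower in NOD and 0 higher, with a median log2 fold change of -1.92. Gbp7 stood at 0.33 at 2 weeks, without a call (adjusted p = 0.68). Iigp1 averaged 0.791 CPM in NOD and 13.7 CPM in B6 at 2 weeks (interaction 10.78 ± 1.38), and Gbp4 5.84 and 33 CPM (5.24 ± 0.69). H2-K1 crossed as well, from 276 CPM in NOD and 547 CPM in B6 at 2 weeks (interaction 2.22 ± 0.23, adjusted p = 2.2e-07). H2-Ab1, which was not called at 12 weeks, averaged 1330 CPM in NOD and 3340 CPM in B6 at 2 weeks and 3420 and 11300 CPM at 4 weeks, so its levels had drawn together (interaction with 2 weeks 1.62 ± 0.24). Cd74 did the same, with 3390 and 8460 CPM at 2 weeks (1.45 ± 0.21). Of the 28 type I interferon-stimulated genes, 12 were called lower in NOD and 0 higher at 2 weeks, with a median log2 fold change of -1.47. At 4 weeks 7 were lower and 1 higher (median -0.70). The strain difference had moved towards NOD since 2 weeks for 3 of the 28, and away from it for 0.

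Several falls arose with age too. Cd36 averaged 108 CPM in NOD and 96.8 CPM in B6 at 2 weeks, and 14.7 CPM in NOD at 8 weeks (interaction -4.25 ± 0.41). Hpgd averaged 85.3 and 88.3 CPM at 2 weeks (-4.36 ± 0.52). S1pr1 averaged 95 and 69.6 CPM (-3.58 ± 0.41), Mmp12 717 and 308 CPM (-3.74 ± 0.33) and Siglech 140 and 52.3 CPM (-4.17 ± 0.46), so Mmp12 and Siglech had been called higher in NOD at 2 weeks. Tgfbr1 averaged 1140 CPM in NOD and 853 CPM in B6 (-1.51 ± 0.19). Il2ra differed at both ages (17 against 129 CPM at 2 weeks), and its interaction did not pass (adjusted p = 0.23). The cell cycle, oxidative phosphorylation and stress lists leaned the same way at 2 weeks, with median log2 fold changes of 0.51, 0.69 and -0.91. At 4 weeks their medians were 0.76, 0.99 and -1.26. In each of these lists 0 members were called in the interaction with 2 weeks. The glycolysis list leaned the other way at 2 weeks (median -0.23).

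**Figure D5:**
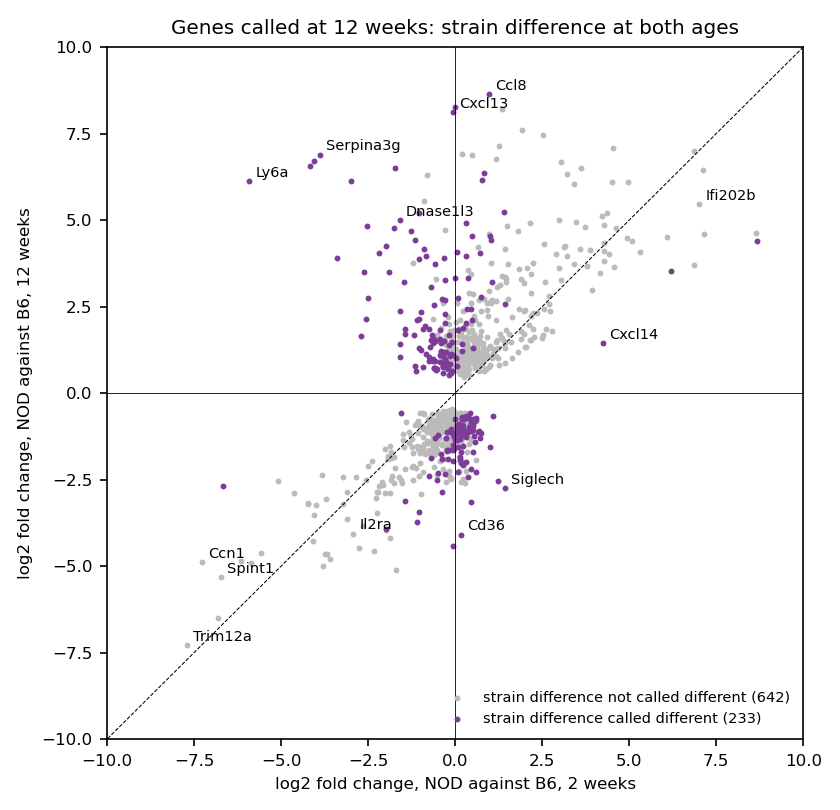
Each point is 1 of the 875 genes called at 12 weeks, with its log2 fold change in NOD against B6 at 2 weeks (horizontal) and at 12 weeks (vertical), and the dashed line marks equal differences. The 233 purple genes had strain differences called different between the ages, among them Cxcl13 and Ccl8 near 0 at 2 weeks, and Trim12a and Ifi202b lie near the dashed line.

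A set of 164 genes was called in the same direction at 2, 4 and 12 weeks. Ifi202b, a DNA-binding interferon-inducible gene, read 35, 26.6 and 36.9 CPM in NOD and 1.43, 0.325, 0.401 and 0.849 CPM in B6 at 12 weeks, with 25.3 CPM in NOD and 0.185 CPM in B6 at 2 weeks. Its relatives Ifi213 and Ifi206 were lower in NOD, at 0.563 to 2.59 CPM against 30 to 46.2 CPM and 0.122 to 2.48 CPM against 20.7 to 39.5 CPM. Trim12a read at most 0.432 CPM in NOD and 30.5 to 42.5 CPM in B6. These genes lie in families of close copies that vary between strains, so reads of NOD may be lost or shifted against the B6 reference, and the levels are uncertain. The same holds for the ribosomal protein gene Rpl29, at 0.338 to 0.732 CPM against 12 to 15.8 CPM.

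The set also held other kinds of gene. Spint1, a membrane inhibitor of serine proteases, read 2.37, 1.1 and 0.901 CPM in NOD and 31.4, 72.1, 68 and 64.3 CPM in B6. The peptide transporter Slc15a2 read at most 2.81 CPM against 18.2 to 71.9 CPM, and the intermediate filament gene Nes 0.788 to 3.54 CPM against 40 to 70.1 CPM. Ccn1, a matrix-associated protein, read 3.13 to 4.15 CPM against 46.5 to 142 CPM, and Rab6b 1.91 to 4.03 CPM against 42.4 to 61.7 CPM. The drug efflux pump Abcb1b read 0.61 to 2.16 CPM against 23.7 to 46.8 CPM, a call lost with the islet covariate (adjusted p = 0.209), and it has a close paralog, so its level is uncertain. None of these 6 had an interaction with 2 weeks that passed (adjusted p = 0.11 to 0.86). Among genes named in earlier paragraphs, the set also held Fcgr1, Msr1, Cxcl14 and Atp5o, higher in NOD. On the lower side it held Fcgr3, Fcer1g, Apoe, Oas2, Stab1, Cd81, H2-Ob, Il2ra, Hspa8, Btg2, Jun and Dnajb1.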

How the data were processed

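Total RNA of sorted islet cells was amplified and sequenced in 26 libraries, per the labels' protocols. The deposited table holds whole-number read counts per gene made by the authors, and the submitters' processing notes name STAR, HTSeq and DESeq2 with mm10 and GRCm38, whose versions and settings are not given in the sources used here. Of 41092 lines, 534 repeats of 286 gene identifiers were removed, and 40340 of the 40558 genes had a symbol. NOD reads set against a B6-based reference can be lost where the strains differ.

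Counts were scaled by TMM and fitted in R 4.3.3 with edgeR 4.0.16 (quasi-likelihood test, robust, 7 groups of 26 libraries) after filterByExpr, which left 19703 genes. P-values were adjusted over all of them (Benjamini-Hochberg), and calls needed an adjusted value under 0.05. SE is the log2 fold change divided by the square root of F. Folds against groups at 0 use 3 counts. Genes were named from the 15 largest rises and falls, up to 5 called members of each list (3 for other cells), the 8 largest shifts between ages, the highest genes called at 12 weeks alone, and check genes, not all of which are printed. Uncalled genes and the others outside this rule were picked for their known role after their values were seen. Members and lists were chosen with earlier results of these data known. The alternatives used limma 3.58.1 and DESeq2 1.42.0. Tested on simulated counts (18503 genes), the fit recovered 2 of 50 genes changed 2-fold and 28, 46 and 43 of 50 changed 4-, 8- and 16-fold. The changed genes were drawn from those with a mean of at least 5 CPM over the 26 libraries. Recovery of genes at lower levels was not tested. The 12 week libraries held 4957125 to 10502204 counts, so 3 counts equal 0.286 to 0.605 CPM. Replicate numbers were not treated as pairs in the main fit, and no protein sequences are shown. The values of some list members are not reported here.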

Additional observations from a re-analysis of the deposited data

Results flagged for a closer look

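The 4 B6 libraries at 12 weeks were compared over 185 genes and lists, 1 case for each. Genes at 0 in all 4, such as Ly6c2, could not be compared. In 10 cases 1 library lay beyond the 95% limit of Dixon's test for a distant value. Chance alone would give about 1 case in 20. Replicate 1 stood high for Gbp7 (52 CPM) and low for Aif1 (201 CPM). Replicate 2 stood high for H2-DMa (346 CPM) and Fscn1 (4.39 CPM). Replicate 3 stood high for Msr1 (40.1 CPM) and Itln1 (0.401 CPM). Replicate 4 stood high for Il18bp (20.8 CPM), Dhcr7 (24.4 CPM) and Cd3e (1.8 CPM), and low in the mean log2 level of the stress and dissociation list (7.28).

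The strain difference at 12 weeks differed from that at 2 weeks for 329 genes and from that at 4 weeks for 874. Of the 151 genes examined for the text, 70 were called against 2 weeks and 17 against 4 weeks only. Each value below is the log2 fold change of NOD against B6 at 12 weeks minus that at the earlier age, so a positive value means a shift towards NOD.

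For the sort markers the shift from 2 weeks was 1.12 for Itgax. For chemokines the shift from 2 weeks was 8.20 for Cxcl13, 7.68 for Ccl8, 8.22 for Cxcl9, 3.11 for Cxcl10, 7.30 for Ccl5 and -2.80 for Cxcl14, and from 4 weeks only 0.69 for Cxcl16. For chemokine receptors the shift from 2 weeks was -3.58 for S1pr1 and -3.73 for Ccr2, and from 4 weeks only 1.69 for Ccrl2 and -5.93 for Ccr6. For interferon-gamma signalling the shift from 4 weeks was 1.37 for Ifngr2 and 1.62 for Irf1. For interferon-inducible GTPases the shift from 2 weeks was 2.10 for Gbp7, 10.78 for Iigp1, 5.07 for Gbp2, 5.24 for Gbp4, 5.59 for Gbp2b and 3.82 for Igtp. For type I interferon-stimulated the shift from 2 weeks was 2.43 for Irf7. For MHC class I the shift from 2 weeks was 2.22 for H2-K1, 1.53 for H2-D1, 1.74 for Psmb8, 2.57 for Psme2, 1.00 for Tapbp, 1.66 for B2m and 2.99 for Tap1, and from 4 weeks only 3.47 for Psmb9. For MHC class II the shift from 2 weeks was 2.66 for Ifi30, 1.13 for H2-DMa, 1.62 for H2-Ab1, 1.45 for Cd74, 0.94 for H2-Aa and 1.77 for H2-Eb1, and from 4 weeks only 0.97 for Lgmn. For T cell ligands the shift from 2 weeks was 5.93 for Cd274, 3.76 for Cd40, 2.03 for Slamf8 and 0.79 for Sirpa, and from 4 weeks only -3.67 for Cd80. For cytokines the shift from 2 weeks was 3.40 for Il1rn, 2.99 for Ptgs2, 4.32 for Il18bp, 6.52 for Acod1, 6.25 for Il12b and 1.28 for Il1b.

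For complement the shift from 2 weeks was 5.38 for C3, 1.61 for C1qc, 0.89 for C1qb and 3.34 for Cfp. For Fc receptors the shift from 2 weeks was 1.16 for Fcgr1, 0.98 for Fcer1g and 2.15 for Fcgr4, and from 4 weeks only -3.52 for Fcrls and 1.02 for Fcgr3. For sensors and lectins the shift from 2 weeks was 1.01 for Tmem173, -1.59 for Tlr7, -4.17 for Siglech and 5.39 for Clec4a1, and from 4 weeks only -2.48 for Mertk. For lipid genes the shift from 2 weeks was -4.25 for Cd36, -1.18 for Apoe, 6.23 for Nr1h3 and -2.27 for Trem2, and from 4 weeks only 3.09 for Pltp. For proteases and factors the shift from 2 weeks was 1.61 for Tgfbi, -3.74 for Mmp12, -2.63 for Thbs1, 1.24 for Ctsz, 2.10 for Mmp14, 1.40 for Grn and 6.59 for Dnase1l3. Further proteases and factors gave 3.82 for Chil1, -4.36 for Hpgd and -1.51 for Tgfbr1, and from 4 weeks only -3.05 for Fgf13. For other large differences the shift from 2 weeks was 10.77 for Serpina3g, 12.04 for Ly6a, 9.11 for Ly6i and 5.52 for H2-Q2, and from 4 weeks only 9.27 for F2r. For macrophage identity the shift from 4 weeks was 1.24 for Itm2b. For cell cycle and metabolism the shift from 2 weeks was 4.72 for Hk3, and from 4 weeks only 1.20 for Atp5b. For markers of other cells the shift from 2 weeks was 10.72 for Ly6c2, and from 4 weeks only 15.11 for Igkc. The sizes of both are uncertain. At 12 weeks Ly6c2 was at 0 CPM in all B6 libraries and at most 1.29 CPM in NOD. The level of Igkc in NOD at that age rested on replicate 1 (71.5 CPM).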

How the results depend on the processing

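The 875 genes called at 12 weeks became 2211 without the B6 4 week libraries (1263 higher, 948 lower), 1651 with the 2 groups fitted alone (883 and 768), 1969 with limma-voom (1091 and 878), 1405 with DESeq2 (665 and 740) and 312 with the islet covariate (149 and 163). Leaving out 1 replicate gave 529 to 874 genes, 287 to 467 higher and 205 to 407 lower. The lowest total came without NOD replicate 3 and the fewest lower genes without NOD replicate 2. RLE and upper-quartile scaling gave 444 higher and 498 lower, and 385 and 549. The 329 shifts from 2 weeks became 1191, 705, 790, 646 and 207 in the same 5 settings, and 205 to 325 in single omissions. The 874 shifts from 4 weeks became 292 with the groups alone, 315 with limma-voom and 1906 with DESeq2, and 444 to 807 in single omissions. The fit without the B6 4 week libraries could not give that contrast. The cause of these changes was not tested. Same-numbered replicates of the 2 strains correlated at -0.015, -0.111 and 0.02, which did not show pairing. So few pairs cannot settle whether the numbers mark a shared origin, and the labels do not say. The replicate block gave 422 higher and 368 lower genes. Of 122 called genes examined, 63 kept their call in every one of the 17 alternatives that gave a value, 97 kept it in all 7 single omissions and 0 reversed. Some genes that were not called gained a call, in the same direction, in at least 1 alternative. These were Ccl2, Ccl3, Ccl4, Ccr2, Ifngr1, Irf1, Igtp, Psmb9, H2-Aa, Cd80, Trem2 and Igf1, so their lack of a call depends on the setting. In the simulated counts 2 of 50 genes changed 2-fold were recovered, so many such changes may go uncalled. Some smaller ones were called, such as those of Lgmn and Cd81 (log2 fold changes 0.56 and -0.81).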

Other observations

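Some further gene groups were put together after their values had been seen, so their counts describe these libraries and carry no test. They share members with the lists above, so part of their counts repeats genes already given. Psmb8 and Psmb10 are in the proteasome group, and C1qa, Csf1r, Fcrls, Jun, Mertk and Siglech in the microglia group. Of 38 proteasome core and cap subunits, 10 were called higher in NOD at 12 weeks and 0 lower, with a median log2 fold change of 0.91. Of 20 genes known from TGF-beta-dependent microglia, 1 was higher and 10 were lower (median -0.58). Of 12 genes known to respond to glucocorticoids, 1 was higher and 5 were lower (median -1.30). The 79 cytosolic ribosomal protein genes tested were split, with 6 higher and 7 lower (median 0.40), and their reads are shared with many pseudogenes.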
